A study of Homo sapiens with 59 samples.

Results

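CDX and tail bud regulators are described here through 10 of the 19084 gene symbols in the deposited table, taken by symbol and followed over all 20 lengths of CHIR99021 exposure. They are the caudal homeobox genes CDX1, CDX2 and CDX4, the homeobox genes NKX1-2 and EVX1, the zinc finger genes SP5 and SP8, GREB1, and the fibroblast growth factors FGF8 and FGF17. The 59 RNA libraries were made from neural stem cells that descend from WA09 (H9), a widely used line of human embryonic stem cells. All cells passed through E6 medium, then FGF8b at 200 ng/mL, then a neuromesodermal progenitor (NMP) medium with CHIR99021, which inhibits GSK3 and so turns on canonical WNT signalling, for 2, 4, 6 and so on to 24 h in 2 h steps, or for 30 to 72 h in 6 h steps. After that step every culture received retinoic acid medium for 4 days and was lysed, so each value is the RNA left 4 days after CHIR99021 was withdrawn and not the level during exposure. Replicates carry the labels A1, A2 and B1, 3 per exposure (48 h lacks B1), and no group without CHIR99021 was used here. Whether replicates were separate cultures is not labelled, and the p-values reflect the spread among libraries alone, which may be technical.

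In the elongating embryo the tail bud holds neuromesodermal progenitors, which feed the spinal cord and the paraxial mesoderm. WNT and FGF signals maintain them, CDX proteins act downstream of those signals to activate posterior HOX genes, and retinoic acid made by the somites ends the progenitor state as cells become neural. NKX1-2 marks the caudal epiblast and the youngest neural plate, SP5 is a direct target of beta-catenin and TCF/LEF factors, and FGF8 and FGF17 are the ligands that form the posterior FGF source.

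Values are TPM (a transcript level scaled for gene length and library size), which keep no depth, so depth is unknown and no detection limit was computed. From 9348 to 13085 genes (median 12594) reached 1 TPM in a library. Under 10000 did so in 3 libraries, 72 h A2, 42 h B1 and 4 h B1, and the next lowest had 11004. Differences are in log2(TPM + 1), a scale that shrinks change in low genes, and come from limma with Benjamini-Hochberg adjustment over 15305 tested genes and a threshold of 0.05. Windows of 4 exposures were compared: early (2 to 8 h), 10 to 16 h, 18 to 24 h, 30 to 48 h and late (54 to 72 h), with 12 libraries each and 11 for 30 to 48 h. Of 10 neural progenitor genes, 6 (SOX3, PAX6, NES, PTPRZ1, CDH2 and MSI1) were above 0 in all 59 libraries, and SOX2, SOX1, HES5 and FABP7 were at 0 in 1, 3, 4 and 8. Late minus early 7 of the 10 were higher and 2 lower, beside 14.3% and 15.8% of all tested genes. The median was 1.46, beside -0.04 for all tested genes. SOX1 went from 1.30 ± 1.46 to 19.1 ± 10.1 TPM, PTPRZ1 from 29.2 ± 9.41 to 159 ± 21.0 and PAX6 from 195 ± 26.2 to 142 ± 26.1 (SD, n = 12 each). The part of this shift in the results was not tested, and the tail bud genes T and MSGN1 were listed at 0 in all 59 libraries.

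The stretches of 250 bases before the gene start are shown for the 3 genes whose late rise is described next, because TCF/LEF factors and CDX proteins are the known regulators of this group. Sequences are from RefSeq (GRCh38.p14), 5′ to 3′ on the gene's strand, and of the 10 genes 6 had an entry. Capitals mark CTTTGAT or CTTTGAA, the core recognised by TCF/LEF factors, on either strand.
SP5, chr2:170715087-170715336, plus strand: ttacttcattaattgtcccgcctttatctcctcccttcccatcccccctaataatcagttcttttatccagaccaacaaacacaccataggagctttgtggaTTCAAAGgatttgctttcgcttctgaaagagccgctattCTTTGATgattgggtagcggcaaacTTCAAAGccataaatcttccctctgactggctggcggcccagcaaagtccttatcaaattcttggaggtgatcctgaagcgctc
CDX2, chr13:27969316-27969565, minus strand: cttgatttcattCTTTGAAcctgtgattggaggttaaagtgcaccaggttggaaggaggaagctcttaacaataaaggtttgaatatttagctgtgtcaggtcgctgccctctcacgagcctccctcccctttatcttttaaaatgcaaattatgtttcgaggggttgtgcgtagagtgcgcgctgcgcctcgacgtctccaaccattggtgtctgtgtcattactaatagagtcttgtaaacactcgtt
NKX1-2, chr10:124450036-124450285, minus strand: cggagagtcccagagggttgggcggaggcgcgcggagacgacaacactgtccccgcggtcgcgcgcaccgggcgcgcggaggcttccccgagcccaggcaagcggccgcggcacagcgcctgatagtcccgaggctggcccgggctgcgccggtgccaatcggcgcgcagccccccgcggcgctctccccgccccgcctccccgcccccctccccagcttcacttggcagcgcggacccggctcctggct
The SP5 stretch held CTTTGAT once and CTTTGAA at 2 places, the CDX2 stretch held CTTTGAA once, SP8 (not shown) held CTTTGAA once, and the NKX1-2, EVX1 and CDX4 stretches held neither. Of 35116 promoters of the same length, 2.26% held CTTTGAT, 3.80% held CTTTGAA and 7 (0.0199%) held 3 or more copies of them together. For the caudal-type words TTTATGG and TTTATTG, searched on both strands and neither containing nor contained in the first pair, SP5 held TTTATGG once and CDX2 held TTTATTG once, against 2.30% and 3.66% of all promoters. These words and the stretches shown were chosen after the expression values were known, and a match is a run of letters, not a site shown to be bound.

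Most of the late pattern came from CDX2, NKX1-2 and SP5, which were at or below 3.45 TPM in every library through 42 h and higher after 54 to 72 h. CDX2 was at 1 TPM or more in 12 of 12 late libraries and 2 of the 47 others, NKX1-2 in 9 of 12 and 2 of 47, and SP5 in 11 of 12 and 7 of 47. CDX1 followed another course, with RNA after the shortest exposures, little after 18 to 24 h and RNA again late. SP8 and GREB1 were above 1 TPM in every library, while CDX4, FGF8 and FGF17 were at 0 in most.

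**Figure D1:**
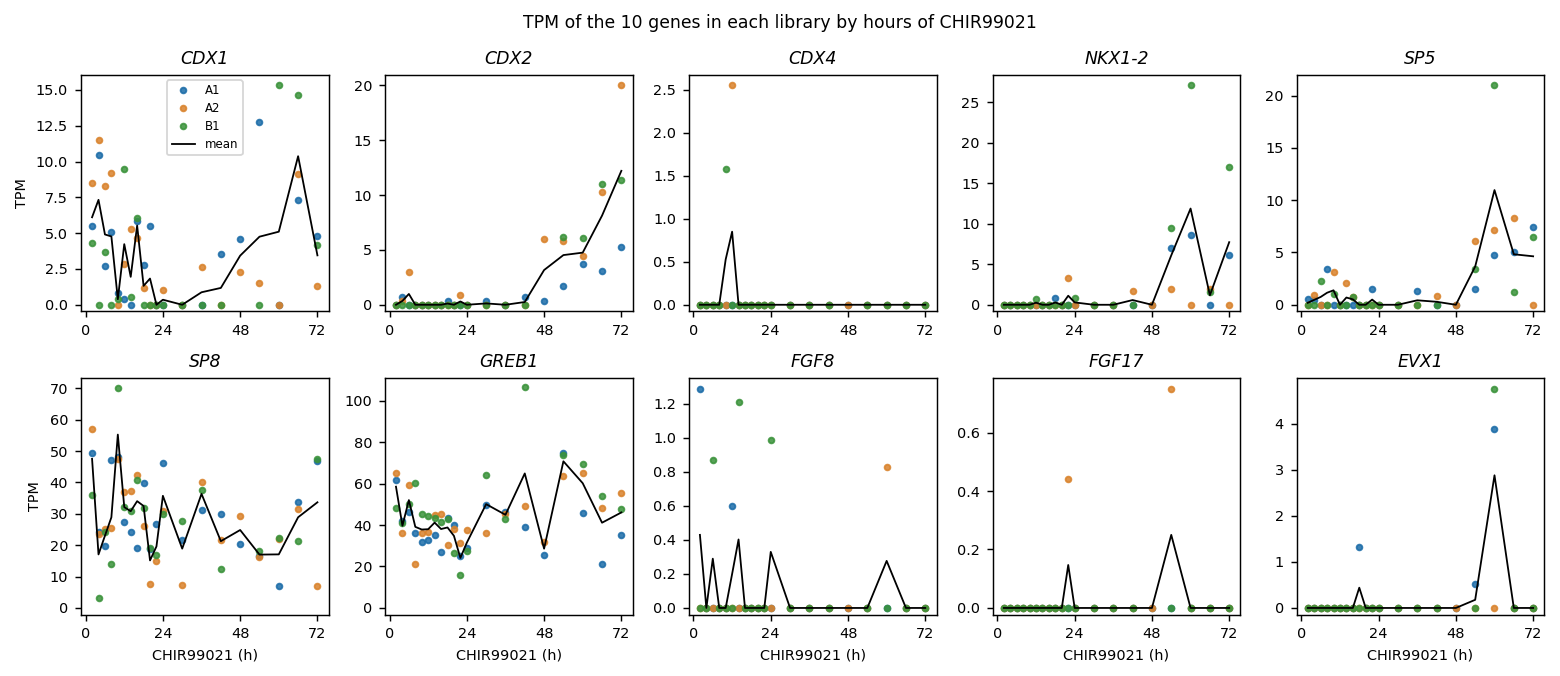
Each panel plots TPM (linear axis, its own range) of 1 of the 10 genes against hours of CHIR99021; points are single libraries coloured by replicate label and the line joins time-point means. CDX2, NKX1-2 and SP5 stay at or below 3.45 TPM until 42 h and rise after it, and CDX4, FGF8 and FGF17 stay below 3 TPM. CDX1 has RNA at both ends and also after 16 h.

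Of the 10 genes, 7 passed the filter on low values (at least 1 TPM in at least 3 libraries) and were tested. CDX4, FGF8 and FGF17 did not pass and carry no test. CDX2, NKX1-2 and EVX1 passed only through the late libraries, where they were high. Outside the late window they reached 1 TPM in 2, 2 and 1 of 47 libraries, too few to be tested. Over the whole course, a spline of hours found a change in 5 genes (limma adjusted p of 5.34e-18 for CDX2, 1.39e-06 for SP5, 4.70e-05 for NKX1-2, 0.00285 for CDX1 and 0.0140 for GREB1), beside 36.8% of all tested genes. SP8 (adjusted p = 0.573) and EVX1 (adjusted p = 0.388) did not pass. Late minus early, 4 genes were higher, CDX2, NKX1-2, SP5 and EVX1, and 14.3% of all tested genes were higher in that comparison.

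CDX2 encodes the caudal factor that drives posterior HOX genes in the tail bud and later specifies the intestine. In the late libraries A1, A2 and B1 it was at 1.67, 5.78 and 6.14 TPM after 54 h, at 3.71, 4.45 and 6.10 after 60 h, at 3.10, 10.3 and 11.0 after 66 h and at 5.29, 20.0 and 11.4 after 72 h. Early libraries were at 0 in 9 of 12 with 2.96 TPM in 6 h A2 as the highest, and the 10 to 16 h libraries were at 0 in 12 of 12. After 48 h, A1 was at 0.360 and A2 at 5.97 TPM, so the 2 libraries of that exposure fell on either side of the rise. The early and late ranges overlapped through 6 h A2 alone. CDX2 was 2.59 higher late than early (SE 0.23, limma adjusted p = 7.58e-13) and 2.35 higher than at 30 to 48 h (SE 0.23, adjusted p = 3.04e-10). It passed the filter only through the late libraries, where it was high, so these p-values are not independent of that filter. Its time-point mean was highest after 72 h at 12.2 ± 7.39 TPM (SD, n = 3), then after 66 h at 8.13 and 60 h at 4.75, and all 19 neighbouring pairs in that order lay within 1 SD of each other. The mean passed 50% of its highest value at 62.4 h, against 58.6 ± 6.48 h over the 3 replicate labels taken singly, and at 52.4 h without the 3 libraries with under 10000 genes, 1 of which is the 72 h A2 library with the highest CDX2.

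CDX1, the WNT-responsive caudal gene that also marks intestinal epithelium, had RNA at both ends of the course and at some exposures between them. After 2 h it was at 5.51, 8.52 and 4.30 TPM in A1, A2 and B1, after 4 h at 10.5, 11.5 and 0, after 6 h at 2.73, 8.30 and 3.70 and after 8 h at 5.08, 9.23 and 0. The 10 to 16 h libraries ran from 0 to 9.47 TPM (median 1.81), with none above 0.79 after 10 h and 5.88, 4.63 and 6.09 after 16 h. The 18 to 24 h libraries were at 0 in 8 of 12, with a highest value of 5.49 TPM in 20 h A1. Those of 30 to 48 h were at 0 in 7 of 11, with a highest value of 4.59 TPM in 48 h A1. Late libraries ranged from 0 to 15.3 TPM with a median of 4.51: 12.7, 1.53 and 0 after 54 h, 0, 0 and 15.3 after 60 h, 7.35, 9.11 and 14.7 after 66 h, and 4.82, 1.33 and 4.20 after 72 h. Replicates therefore spanned the whole late range after 60 h and most of it after 54 h, while those of 66 h all stood above 7 TPM. CDX1 was 1.84 lower at 18 to 24 h than early (SE 0.48, limma adjusted p = 0.00401), a direction in which 9.45% of all tested genes were called. Late minus 18 to 24 h it was 1.57 higher (SE 0.48, adjusted p = 0.0211), with 5.43% of all tested genes higher. Late minus early the difference was -0.27 with a 95% interval from -1.23 to 0.70 (adjusted p = 0.728), which holds values in both directions. The fall lost its call without the A2 libraries (-1.35, adjusted p = 0.191), and the rise lost it without A1 (1.76, adjusted p = 0.0809), A2 (1.89, 0.0859), B1 (1.06, 0.152) or the 60 h B1 library alone (1.24, 0.0700). Both windows were set against 18 to 24 h after the values had been seen.

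Of 11 genes of the gut epithelium, where CDX1 is also transcribed, VIL1, HNF4A and FABP1 were high in the early libraries and made up most of the list's level there. The summed level of 11 intestinal genes ran from 65.0 to 156 TPM early (median 100.4), from 7.17 to 55.6 at 18 to 24 h (23.2) and from 0 to 20.8 late (6.58), with MUC2 and PHGR1 at 0 in every library. VIL1, a microvillus protein, was at 40.5 ± 11.8 TPM early, 4.61 ± 4.75 at 18 to 24 h and 0.050 ± 0.12 late, and HNF4A, an endodermal nuclear receptor, at 42.6 ± 23.8, 8.43 ± 8.57 and 0.42 ± 0.99 (SD, n = 12 each). FABP1, a fatty acid binding protein, was at 22.1 ± 20.7 TPM early and 1.67 ± 3.92 late, while CDH17, LGALS4, FABP2, GPA33 and ISX had early means below 1 TPM and TFF3 an early median of 0.36 TPM. Of 8 tested intestinal genes, 4 fell from early to 18 to 24 h (VIL1 by 3.30, HNF4A by 2.55, TFF3 by 1.05 and ISX by 0.55, all on the log2 scale) and none rose, where 9.45% of all tested genes were lower and 10.5% higher, with a list median of -0.80 beside 0.01 for all tested genes. Late minus early 4 of the 8 were lower, beside 15.8% of all tested genes, and GPA33 alone was higher (1.61, SE 0.39, limma adjusted p = 0.00117). Their part in the early CDX1 was not tested, and in these bulk libraries fewer cells of a type and less RNA per cell cannot be told apart. Of the 5 tested trophoblast genes, a lineage that CDX2 also marks, 3 were lower late than early (15.8% of all tested genes were) and none was higher (14.3%). GATA3 was at 9.43 ± 8.01 TPM early, 0.30 ± 0.52 at 18 to 24 h, 0.10 ± 0.35 at 30 to 48 h and 0.30 ± 0.55 late. GCM1 was at 0.22 ± 0.41 TPM early, 0.04 ± 0.13 at 18 to 24 h, 2.16 ± 3.42 at 30 to 48 h and 0.10 ± 0.28 late (SD, n = 12, and 11 for 30 to 48 h). The part of such cells in the late CDX2 was not tested.

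The relation of CDX1 to CDX2 changed along the course on the TPM scale, which is per length and so can be set side by side. CDX1 was the higher of the pair in 10 of 12 early libraries and equal to it at 0 in the other 2. After 54 to 66 h CDX1 was higher in 4 and CDX2 in 5 of 9 libraries, and after 72 h CDX2 was higher in 3 of 3, at 12.2 ± 7.39 against 3.45 ± 1.86 TPM (SD, n = 3). CDX4, the third caudal gene, was above 0 in 2 of 59 libraries, at 1.58 TPM in 10 h B1 and 2.55 TPM in 12 h A2, and at 0 in all 12 late ones.

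**Figure D2:**
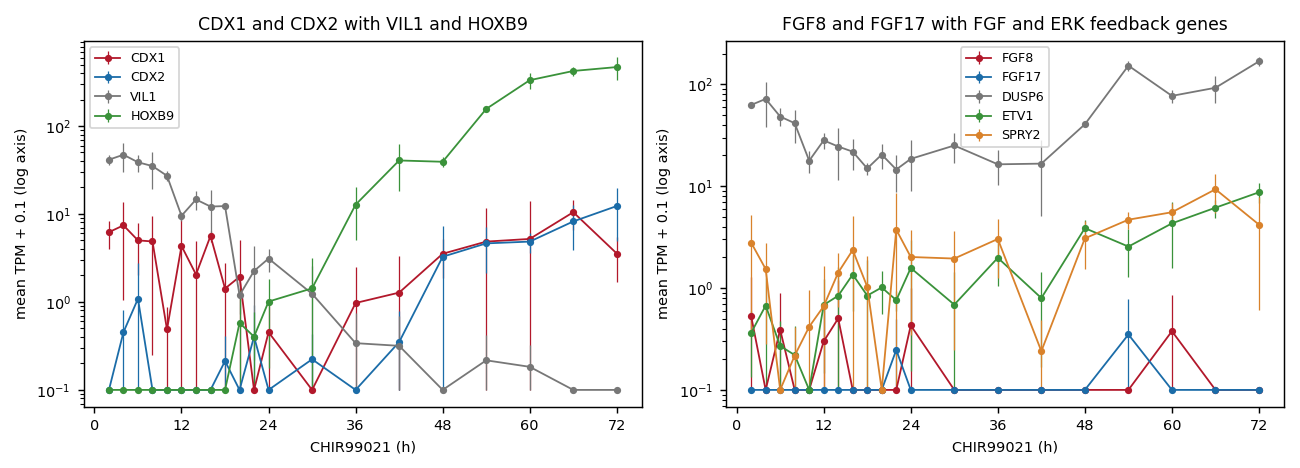
Mean TPM + 0.1 (log axis) with SD bars over 2 or 3 libraries against hours of CHIR99021, for CDX1 and CDX2 with VIL1 and HOXB9 (left) and for FGF8 and FGF17 with DUSP6, ETV1 and SPRY2 (right). VIL1 falls from 41.3 TPM at 2 h to 1.09 TPM at 20 h, where HOXB9 is still at 0.48 TPM. HOXB9 reaches 468 TPM at 72 h. FGF8 and FGF17 stay below 1 TPM while DUSP6 reaches 168 TPM.

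NKX1-2 and EVX1 are homeobox genes of the caudal end of the embryo, and EVX1 is used again later in ventral interneurons of the spinal cord. NKX1-2 was at 6.99, 1.90 and 9.43 TPM after 54 h in A1, A2 and B1, at 8.58, 0 and 27.1 after 60 h, at 0, 1.94 and 1.59 after 66 h and at 6.15, 0 and 17.1 after 72 h. Late A2 libraries never passed 2 TPM and all 3 libraries of 66 h were below it, so the late window was uneven by label and by exposure. All 12 early libraries were listed at 0, and outside the late window the highest were 3.35 TPM in 22 h A2 and 1.75 TPM in 42 h A2. NKX1-2 passed the filter only through the late libraries, where it was high, so its calls here are not independent of that filter. It was 2.16 higher late than early (SE 0.35, limma adjusted p = 2.91e-06) and 2.04 higher than at 30 to 48 h (SE 0.36, adjusted p = 0.000103). That last call was lost without the A1 libraries (1.92, adjusted p = 0.0887) or the B1 libraries (1.34, adjusted p = 0.0637), while late minus early kept its call in every alternative run. In the order of its time-point means, 60 h (11.9 TPM), 72 h (7.74) and 54 h (6.11) came first, and the step from 54 h to 66 h (1.18) was the only one of 19 larger than 1 SD.

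EVX1 was above 0 in 4 of 59 libraries, at 1.32 TPM in 18 h A1, 0.53 in 54 h A1, 3.88 in 60 h A1 and 4.76 in 60 h B1. Its late minus early difference was 0.45 (SE 0.16, limma adjusted p = 0.0246), which rests on 3 of 12 late libraries against 12 at 0. Without the A1 libraries, the B1 libraries or 60 h B1 alone it fell below the filter and was not tested, and 9 of the 12 late libraries were at 0. Of 7 tested V0 and spinal interneuron genes, none was called late minus early, where 14.3% of all tested genes were higher and 15.8% lower. The summed level of that list ran from 11.8 to 56.0 TPM early and from 6.53 to 66.3 late.

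SP5 and SP8 are related zinc finger factors that act together downstream of WNT in the tail bud, and SP8 is also active in the limb ridge and in the anterior and dorsal neural tube. SP5 was at 1.50, 6.06 and 3.41 TPM after 54 h, at 4.75, 7.18 and 21.0 after 60 h, at 5.01, 8.29 and 1.18 after 66 h and at 7.41, 0 and 6.49 after 72 h in A1, A2 and B1. Only 72 h A2, 1 of the 3 libraries with under 10000 genes, was at 0 among the late ones. Early libraries ran from 0 to 3.45 TPM with a median of 0, and 18 to 24 h and 30 to 48 h together had 2 libraries at 1 TPM or more, 22 h A1 at 1.49 and 36 h A1 at 1.28. SP5 was 1.93 higher late than early (SE 0.32, limma adjusted p = 3.32e-06) and 2.26 higher than at 30 to 48 h (SE 0.33, adjusted p = 2.58e-06), and both calls held in every alternative run. Its mean passed 50% of its highest value at 55.5 h, and at 55.5 ± 3.08 h over the 3 labels.

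SP8 was the higher of the 2 per length in 59 of 59 libraries, at 28.5 ± 13.4 against 1.55 ± 3.36 TPM. It was highest after 10 h at 48.2, 47.5 and 70.0 TPM and lowest after 20 h at 18.8, 7.62 and 19.1, a 3.65-fold range of time-point means that did not follow the length of exposure. Early libraries ran from 3.30 to 57.0 TPM (median 24.7) and late ones from 6.90 to 47.4 (21.6), overlapping over nearly the whole range. Late minus early the difference was -0.23 with a 95% interval from -0.78 to 0.32 (limma adjusted p = 0.579). The 3 libraries with under 10000 genes held low SP8, at 3.30 TPM in 4 h B1, 12.3 in 42 h B1 and 6.90 in 72 h A2. Of the 5 other SP factors tested, SP3 alone was called late minus early (0.35, SE 0.09, adjusted p = 0.00196), higher as 14.3% of all tested genes were.

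GREB1, an oestrogen receptor target and cofactor that is also transcribed in the tail bud, had the highest mean of the 10 genes, 44.3 ± 15.7 TPM over 59 libraries. Early libraries ran from 21.1 to 65.1 TPM (median 47.4), 18 to 24 h libraries from 15.9 to 43.2 (30.9) and late libraries from 21.1 to 74.6 (54.8). The lowest exposure was 22 h at 25.2, 31.3 and 15.9 TPM and the highest 54 h at 74.6, 63.7 and 74.0. These 2 were picked as the ends of 20 exposures, so the gap between them is no test, and the windows overlapped. GREB1 was 0.53 lower at 18 to 24 h than early (SE 0.16, limma adjusted p = 0.0135) and 0.71 higher late than at 18 to 24 h (SE 0.16, adjusted p = 0.00107), while late minus early was 0.19 (95% interval -0.14 to 0.51). The fall lost its call without A1 (adjusted p = 0.0799), without B1 (0.175) and without the 6, 30 and 54 h exposures (0.0759), and the rise without B1 (0.49, adjusted p = 0.0603). The highest single library, 42 h B1 at 107 TPM, was 1 of the 3 with under 10000 genes.

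GREB1 also stood higher at 6, 30 and 54 h, exposures 1 day apart, than at their neighbours 4, 8, 24, 36, 48 and 60 h. The difference was 0.53 (SE 0.16, limma adjusted p = 0.0210), where 9.81% of all tested genes were higher and the median of all tested genes was 0.10. The call was lost with quantile normalization (0.39, adjusted p = 0.0672), with median-ratio scaling (0.42, 0.0608), without A1 (0.49, 0.217) and without A2 (0.58, 0.107). No other gene of the 10 passed in that comparison, which was added after the values had been seen.

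FGF8 and FGF17, the posterior FGF ligands that also act at the isthmus, were close to 0 in these cells. FGF8 was above 0 in 6 of 59 libraries, the highest being 1.29 TPM in 2 h A1 and 1.21 TPM in 14 h B1, and late only 60 h A2 held any, at 0.83 TPM. FGF17 was above 0 in 22 h A2 at 0.44 TPM and in 54 h A2 at 0.75 TPM alone. Among 8 other FGF ligands tested, 3 were higher late than early, beside 14.3% of all tested genes: FGF9 (1.40, SE 0.36, limma adjusted p = 0.00183), FGF18 (1.11, SE 0.34, adjusted p = 0.0108) and FGF1 (0.95, SE 0.33, adjusted p = 0.0260).

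Between neighbouring windows, the tested genes of the 10 passed the threshold in the last step alone. From early to 10 to 16 h none of the 7 was called by limma (7.47% of all tested genes were, in either direction), and none had an unadjusted p under 0.05. From 10 to 16 h to 18 to 24 h none was called (6.34% of all), with CDX1 (-0.98) and SP8 (-0.60) under 0.05 unadjusted. From 18 to 24 h to 30 to 48 h none was called (1.56% of all), with GREB1 (0.47) under 0.05 unadjusted. From 30 to 48 h to late, CDX2, SP5 and NKX1-2 were higher beside 2.86% of all tested genes, and CDX1 (1.28, adjusted p = 0.127) and EVX1 (0.45, adjusted p = 0.0958) were under 0.05 unadjusted alone. By size of that last difference CDX2 ranked 16, SP5 18 and NKX1-2 25 among 15305 genes. CDX2 and NKX1-2 passed the filter only through the late libraries, so their ranks and calls here are not independent of that filter. Without B1, CDX1 was called in the first step (-1.63, adjusted p = 0.0399), and without the 3 libraries with under 10000 genes SP8 was called in the second (-0.60, adjusted p = 0.0331). By the days in the labels the NMP medium was renewed on Day 4, after plating on Day 2, so it fell near 48 h of exposure at a clock time the labels do not give. The late cultures, which are also the oldest, may all have received it, and the length of exposure, the renewal and culture age cannot be told apart.

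**Figure D3:**
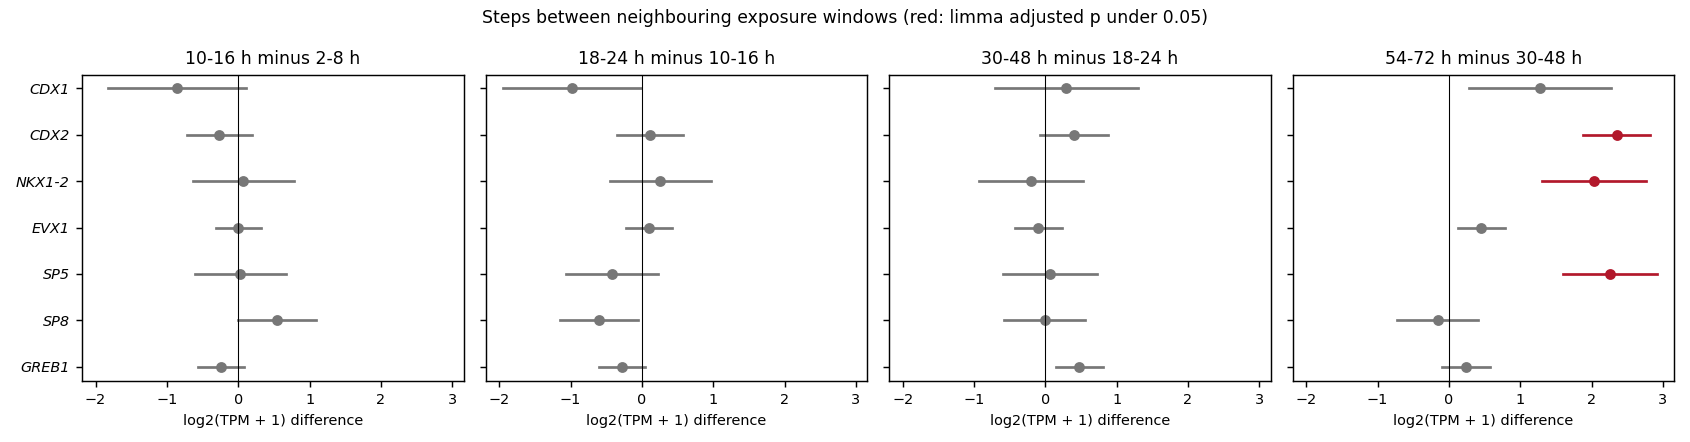
Points are log2(TPM + 1) differences between neighbouring windows with 95% intervals for the 7 tested genes, red where the limma adjusted p was under 0.05. Red points appear in the last panel alone, for CDX2 (2.35), NKX1-2 (2.04) and SP5 (2.26).

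Within the late window the highest libraries differed between genes. The 60 h B1 library held the highest CDX1, NKX1-2, SP5 and EVX1 of the series, whereas the highest CDX2 was in 72 h A2, where NKX1-2 and SP5 were at 0. Over the 12 late libraries 6 pairs among CDX1, CDX2, NKX1-2 and SP5 were correlated in log2(TPM + 1) with 100000 permutations. None passed, which does not show that the genes vary independently. EVX1 was not in this family. The highest was NKX1-2 with SP5 (Pearson r = 0.448, permutation p = 0.146, adjusted p = 0.873; Spearman rho = 0.317, permutation p = 0.317, adjusted p = 0.956), with r = 0.395 after leaving out the 2 libraries farthest from the median of NKX1-2. Those left out were 60 h B1 and 60 h A2, the latter tied at 0 with 66 h A1 and 72 h A2 and taken by library order. CDX1 with NKX1-2 gave r = 0.178 (permutation p = 0.570, adjusted p = 0.895) and rho = 0.149 (permutation p = 0.642, adjusted p = 0.956). Without 54 h B1 and 60 h A1 this r was 0.526. CDX1 was at 0 in 54 h B1, 60 h A1 and 60 h A2, all equally far from its median. The 2 left out were thus set by library order, and nothing is concluded from that value. CDX1 with CDX2 gave r = -0.004 (permutation p = 0.990, adjusted p = 0.990) and rho = 0.021 (permutation p = 0.956, adjusted p = 0.956).

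**Figure D4:**
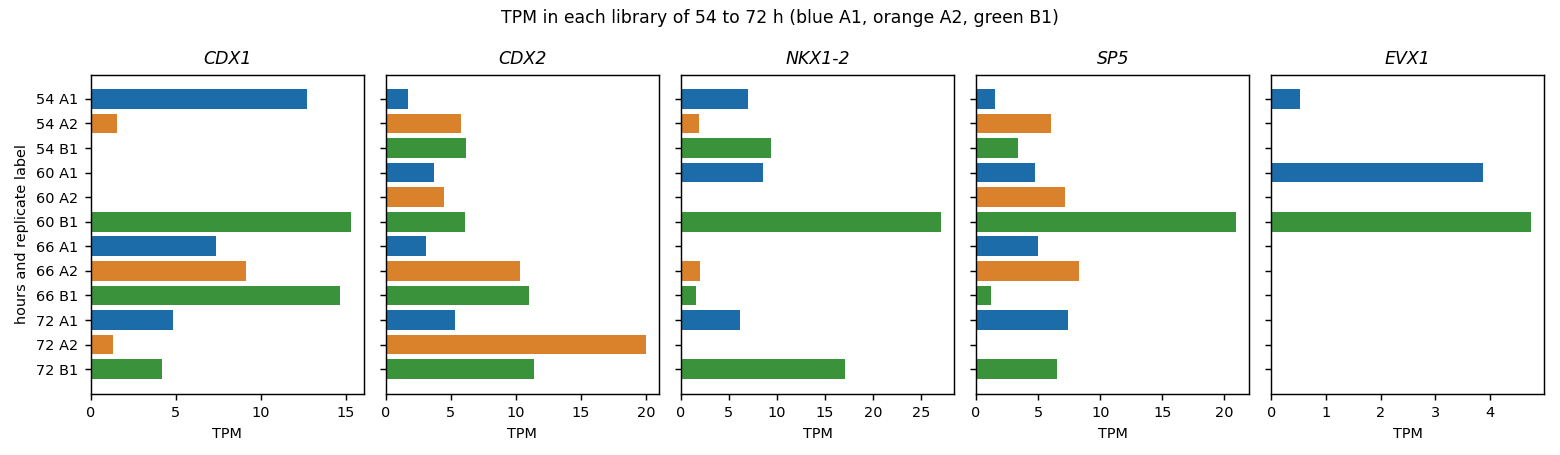
Bars give TPM in each of the 12 libraries of 54 to 72 h, coloured by replicate label, for CDX1, CDX2, NKX1-2, SP5 and EVX1. The 60 h B1 library is the highest for 4 of the 5 genes, and CDX2 alone is above 0 in all 12.

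Genes of the same pathways, in lists separate from the 10, are given as counts beside all tested genes, whose median was -0.04 late minus early and -0.003 late minus 30 to 48 h. Of all tested genes 14.3% were higher and 15.8% lower late than early, and 2.86% higher and 2.7% lower late than at 30 to 48 h; the counts that follow are read against these shares. Of 11 tested HOX genes of groups 5 to 9, the targets of CDX proteins, 11 were higher late than early (median 3.46), and in the last step 8 were higher and HOXB5 was lower (median 1.79). HOXA6, HOXA7, HOXC5, HOXC6 and HOXD8 passed the filter only through the late libraries, where they were high. Their part of these counts is not independent of that filter. Of the 15 genes listed, HOXA9, HOXC8, HOXC9 and HOXD9 did not pass it. HOXB9, a trunk HOX gene, went from 22.0 ± 20.7 TPM at 30 to 48 h to 344 ± 142 late, a difference of 4.53 (SE 0.22, limma adjusted p = 2.61e-20). Of 12 feedback genes of FGF and ERK signalling, 8 were higher late than early and none lower (median 0.85), and 9 were higher in the last step (median 1.18). DUSP6, the ERK phosphatase, was at 56.0 ± 20.5 TPM early, 17.0 ± 6.00 at 18 to 24 h, 23.1 ± 11.7 at 30 to 48 h and 122 ± 43.3 late, with a fall of 1.65 on the log2 scale from early to 18 to 24 h (SE 0.22, adjusted p = 9.19e-08). Its last step was 2.39 (SE 0.22, adjusted p = 5.47e-11). The late level was uneven, with means of 40.4 TPM after 48 h, 152 after 54 h, 76.8 after 60 h, 92.3 after 66 h and 168 after 72 h.

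Of 15 tested WNT and beta-catenin targets other than SP5, 6 were higher and 2 lower late than early (median 0.26), and 5 were higher and none lower in the last step (median 0.37). APCDD1, a WNT inhibitor at the cell surface, went from 7.37 ± 4.87 TPM at 30 to 48 h to 42.2 ± 21.3 late (2.48, SE 0.40, limma adjusted p = 2.25e-05), and LEF1, a nuclear effector of the pathway, from 15.7 ± 7.93 to 32.1 ± 12.0 (1.09, SE 0.30, adjusted p = 0.0191). AXIN2, the feedback inhibitor most used as a WNT readout, was at 64.4 ± 23.9 TPM early and 58.3 ± 27.1 late. Of 16 tested tail bud and NMP genes, 6 were higher late than early, led by DLL3, a Notch ligand (2.84), WNT3A (2.53) and the progenitor factor SOX2 (2.12), and 4 were lower, led by CYP26A1, the retinoic acid degrading enzyme (-2.37), MNX1 (-1.34) and LIN28A (-0.86), with a median of 0.05. In the last step none of these 16 was higher and CYP26A1 and WNT5A were lower. Of 7 tested paraxial mesoderm genes none was higher late than early and FOXC2 (-1.47) and MEOX1 (-1.53) were lower, with MSGN1 and RIPPLY2 at 0 throughout. Among genes of the isthmus, another site of FGF8 and FGF17, GBX2 (2.30) and WNT1 (3.21) were higher late than early, and OTX2 (-2.74) and LMX1B (-2.24) were lower.

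Likeness of pattern was measured as Pearson r of time-point means of log2(TPM + 1) over 20 exposures, a description across points that share libraries. CDX2 was most like EDNRB (r = 0.939), ADAMTSL1 (0.915), HOXC5 (0.913), CHL1 and PLD5 (0.912 each). SP5 was most like PRB3 (0.922), HOXC5 (0.909) and GRIA1 (0.873), and NKX1-2 most like GRIA1 (0.907), TMEM229B and SP5 (0.848 each). HOXC5 stood among the 5 most alike of all 3. The nearest genes to CDX1 were CPE (0.784) and DDAH2 (0.781), to SP8 ANK3 (0.783) and HIST1H3F (0.752), and to GREB1 SOLH (0.792) and CASC3 (0.789). For EVX1, FAM178B (0.929) and HOXA6 (0.887) came first, over a pattern that 4 libraries make up. Several of the genes named were low. Their highest time-point means were 0.69 TPM for TMEM229B, 3.01 for PRB3, 3.23 for HIST1H3F and 3.29 for FAM178B.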

How the data were processed

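Messenger RNA of 59 libraries was read as single reads of 51 bp after oligo-dT selection of 100 ng RNA and 18 PCR cycles, per the labels' protocols. The authors deposited TPM for 19084 symbols. CASAVA 1.8.2, Bowtie 0.12.8, RSEM 1.2.3 and hg19 are named in the submitters' processing notes; the gene annotation was not given in the sources used here. TPM summed to between 999997 and 1000001 in each library, and RSEM apportions reads of near-identical genes by estimation. Groups came from the labels. A gene of the lists is not reported here.

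From these values log2(TPM + 1) was fitted in R 4.3.3 with limma 3.58.1 (intensity trend, 20 time-point means with 39 residual df, or a natural spline of hours with 4 df), for the 15305 genes with at least 1 TPM in at least 3 libraries. The fits were tested on simulated data. Python 3.11.15 and matplotlib 3.10.9 were used for the rest. The members, gene lists and windows were chosen with earlier results of these data known. Comparisons of 18 to 24 h with early and late, of 6, 30 and 54 h with neighbours, leaving out 60 h B1, the late correlations, the pairs of genes set side by side, the motifs and the genes drawn with the members were added after seeing the values. Named genes are all 10 members, of each list up to 6 called genes with the largest late minus early difference plus defining genes, and up to 5 most alike genes of each member that reached a mean of 2 TPM at some exposure. Genes of the lists named for another step were picked for that step. Replicate labels A1, A2 and B1 were checked for pairing: deviations from time-point means had a median correlation of 0.005 over 551 same-label pairs (-0.181 to 0.158), so they were not treated as pairs.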

Additional observations from a re-analysis of the deposited data

How the results depend on the processing

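Results were recomputed with pseudocounts of 0.1 and 0.5, no filter, quantile and median-ratio scaling, a replicate block, splines with 3 and 5 df, and 72 h minus 2 h, and without each replicate label, the 3 libraries with under 10000 genes, the 6, 30 and 54 h exposures, and, chosen after seeing the data, the 60 h B1 library. No called value reversed. CDX2 and SP5 kept their late minus early, late minus 30 to 48 h and late minus 18 to 24 h calls in every alternative that gives these comparisons (the splines bear on the course alone, and 72 h minus 2 h on late minus early alone). Over the leave-one-out fits, the number of the 10 genes called ran from 3 to 4 late minus early (4 with all libraries), 4 to 5 over the course (5), 0 to 1 in the first step (0), 1 to 1 for 18 to 24 h minus early (2), 2 to 4 for late minus 18 to 24 h (5) and 0 to 1 for 6, 30 and 54 h against neighbours (1). That last count was 0 with quantile normalization and 0 with median-ratio scaling, 18 to 24 h minus early gave 1 without the 6, 30 and 54 h exposures, and 18 to 24 h minus 10 to 16 h gave 1 without the 3 libraries with under 10000 genes; the cause was not tested. GREB1 lost its call over the course without A2, without B1 and without the 6, 30 and 54 h exposures, and EVX1 was called late minus 30 to 48 h without A2 (0.68, adjusted p = 0.0368). NKX1-2 lost its late minus 30 to 48 h call without A1 or B1, so the genes called in that last step also changed with the libraries left out. It lost its late minus 18 to 24 h call without A1 (1.73, adjusted p = 0.0628) or B1 (1.15, adjusted p = 0.0744).

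The replicate block changed none of these counts: 4 genes were called late minus early with it and 4 without, among 4610 and 4606 of all genes tested. Over all genes, leaving out libraries moved the calls most: late minus early from 4606 to 2956 without A1, the course from 5629 to 3232 without A1 and 3573 without A2, and late minus 30 to 48 h from 852 to 328 without A1, 440 without A2 and 1331 without the 3 libraries with under 10000 genes. Values near 1 TPM cannot be tied to a number of reads, since depth is unknown.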
